A study of Mus musculus and Homo sapiens with 30 samples.

Results

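The genes described here are 44 mouse genes of DNA replication and of the passage from G1 into S phase, out of the 56980 Ensembl gene IDs counted in each library. They were chosen by name and role, with earlier results of these data known, and all 44 passed the filter on low counts in every fit. By their roles they comprise 10 genes of origin licensing, 6 of helicase activation, 9 of the polymerases and primase, 6 of the sliding clamp and its loader, 5 of strand processing and binding, 4 of nucleotide supply and 4 of S-phase entry. They were read in E0771, an established mouse mammary cancer line, and in NMuMG, an established line of mouse mammary gland epithelium, which the labels class with the cancer cells.

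Cells of both lines grew for 36 h and were then held for 16 h in 1 of 3 media: their own standard growth medium (control), or that medium with 50% of its volume replaced by the secretome of lean or of obese inguinal adipocytes. Each of the 6 combinations of line and medium has 3 libraries of poly(A) RNA. All media of both lines held 10% FBS, and for NMuMG the labels add insulin at 10 mcg/ml and glucose at 4.5 g/L, so a difference between the lines cannot be told apart from a difference in their media. The labels do not say which animals gave the adipocytes, what the lean and obese animals were fed, or whether the 3 libraries of a group came from separate cultures, and p-values here measure only the spread between these libraries. The comparison of the lean with the obese secretome asks whether the state of the adipocyte donor matters to the cells, and the comparison with control medium whether adding a secretome does.

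Before a chromosome can be copied, the origin recognition complex, Cdc6 and Cdt1 load the ring of Mcm2 to Mcm7 onto DNA in G1, a step called licensing. Mcm10, Cdc45 and the GINS complex then turn that ring into the active helicase, primase and polymerase alpha start each strand, and polymerases delta and epsilon extend it on the PCNA clamp that replication factor C loads. Cyclin E with its kinase, and E2F transcription factors released from the retinoblastoma protein, drive the entry into S phase, and many replication genes are known E2F targets. In bulk RNA, fewer cells in S phase and less RNA of a gene per cell cannot be told apart.

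Because E2F is a known factor at such genes, their promoters were searched for its site. RefSeq promoter windows (GRCm38.p6, 250 bases before to 50 after a gene's start) were matched by symbol for 36 of the 44 genes, in 41 windows, and not for Mcm4, Gins1, Gins2, Gins4, Prim2, Pole, Rfc2 and Ccne2. The E2F letters searched, on both strands, were TTTCCCGC, TTTCGCGC, TTTGCCGC and TTTGGCGC. Of the 36 genes 14 held a match (38.9%), against 704 of the 27025 genes with a window (2.6%); by window the shares were 34.1% of 41 and 2.26% of 32851. The 14 are Mcm3, Mcm5, Mcm6, Mcm7, Orc1, Cdc6, Cdt1, Gins3, Pola1, Pole2, Pold1, Pold3, Rfc3 and Lig1. The letters CCAAT were found for 58.3% of the 36 genes and 41.1% of all genes, and the letters TTTGAA or TTCGAA, the core of the element called CHR, for 19.4% and 21.7%. All genes with a window were counted, expressed here or not, and promoters of like base content were not compared. Because many replication genes are known E2F targets, the higher E2F share is no test of E2F in these data. Some genes have several starts and so several windows, and a match is a run of letters, not a measured binding site.

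The 250 bases before the start are printed for 6 genes that hold a match there. Mcm5 and Gins3 also hold a match in those bases and are not printed. Mcm6 and Cdc6 rose with the lean secretome over the obese one in E0771 and were not called in NMuMG, Orc1, Pola1 and Rfc3 rose in E0771 and fell in NMuMG, and Mcm7 fell in both. Each sequence runs 5′ to 3′ on the gene's strand, with the E2F letters in capitals.
Mcm6, chr1:128359706-128359955, - strand: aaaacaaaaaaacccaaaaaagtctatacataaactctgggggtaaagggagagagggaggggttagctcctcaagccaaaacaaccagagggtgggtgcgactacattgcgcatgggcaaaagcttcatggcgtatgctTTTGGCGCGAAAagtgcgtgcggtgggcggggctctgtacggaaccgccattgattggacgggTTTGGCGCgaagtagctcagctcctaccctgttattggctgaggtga
Orc1, chr4:108579204-108579453, + strand: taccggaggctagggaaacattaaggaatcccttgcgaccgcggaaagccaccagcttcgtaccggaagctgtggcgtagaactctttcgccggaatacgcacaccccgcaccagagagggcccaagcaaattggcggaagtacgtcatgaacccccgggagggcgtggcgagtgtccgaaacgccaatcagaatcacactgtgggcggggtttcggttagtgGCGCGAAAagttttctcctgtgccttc
Mcm7, chr5:138171884-138172133, - strand: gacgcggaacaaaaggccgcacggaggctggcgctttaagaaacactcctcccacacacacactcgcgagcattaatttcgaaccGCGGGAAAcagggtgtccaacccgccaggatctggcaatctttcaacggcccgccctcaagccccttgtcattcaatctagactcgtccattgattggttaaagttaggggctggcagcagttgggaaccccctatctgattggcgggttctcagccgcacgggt
Rfc3, chr5:151651209-151651458, - strand: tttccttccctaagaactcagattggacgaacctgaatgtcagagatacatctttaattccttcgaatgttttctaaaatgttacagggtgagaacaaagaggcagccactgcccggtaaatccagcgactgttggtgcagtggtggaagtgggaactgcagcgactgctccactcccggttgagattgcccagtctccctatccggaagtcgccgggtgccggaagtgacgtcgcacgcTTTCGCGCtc
Cdc6, chr11:98907901-98908150, + strand: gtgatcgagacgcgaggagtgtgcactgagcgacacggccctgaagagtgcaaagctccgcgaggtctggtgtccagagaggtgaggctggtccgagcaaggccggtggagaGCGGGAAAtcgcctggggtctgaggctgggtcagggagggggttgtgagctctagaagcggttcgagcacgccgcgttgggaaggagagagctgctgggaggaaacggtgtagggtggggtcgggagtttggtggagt
Pola1, chrX:93632156-93632405, - strand: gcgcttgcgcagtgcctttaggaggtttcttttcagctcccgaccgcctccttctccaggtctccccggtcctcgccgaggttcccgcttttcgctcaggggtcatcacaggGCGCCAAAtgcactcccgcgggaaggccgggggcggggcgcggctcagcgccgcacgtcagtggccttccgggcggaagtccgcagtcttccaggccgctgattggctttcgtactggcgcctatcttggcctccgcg
In Mcm6 the first 2 of its 3 matches overlap on opposite strands and form 1 run of capitals. The E2F letters thus stood in promoters of genes with each of these 3 patterns. Among the genes with a window they were found in 5 of the 9 that rose in E0771 and fell in NMuMG, in 2 of the 10 that rose in E0771 alone by call, in 3 of the 5 that fell in both, in 3 of the 8 called in NMuMG alone, in 1 of the 3 called in neither and not in Ccne1, the 1 gene that rose in both.

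Library totals ranged from 22929035 to 31094119 counts, and a single gene of the 44 had between 338 and 15215 counts in a library. Levels are given as CPM, the counts of a gene scaled to a common library total, which compare a gene between libraries but not genes with each other. Differences are log2 fold changes from edgeR's quasi-likelihood test, called where the Benjamini-Hochberg adjusted p over all genes tested is under 0.05; SE is the standard error. E0771 libraries had 1 of 8 epithelial markers above 1 CPM (Krt8, 254 CPM in control medium). Krt18, Krt19 and Cldn3 stood at 0 there, Epcam at 0.0809 and Cdh1 at 0.143 CPM. NMuMG had 5 of the 8 above 1 CPM in control medium. They were Krt8 at 3450, Krt18 at 2520, Krt19 at 763, Cdh1 at 542 and Epcam at 2.19 CPM. Cldn4 stood at 0.92 CPM there, and Cldn3 and Cldn7 at 0. Of 6 mesenchymal markers 4 were above 1 CPM in E0771 and 2 in NMuMG in control medium, with Vim at 3030 and 1780 CPM. The sum of 7 adipocyte markers stayed between 0.372 and 2.19 CPM in all 18 libraries, with Lep at 0. One library, E0771 lean replicate 3, differed more from the other lean ones (chi-square per degree of freedom 8.44 and 8.16) than they did from each other (2.3). Results are given without it where that ends a call.

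With the lean secretome most called genes of the 44 were higher in E0771 and lower in NMuMG. In E0771 the lean secretome gave higher levels than the obese one for 22 genes and lower levels for 8, with 14 not called, where 25.8% of all 13813 genes tested were higher and 26.9% lower. In NMuMG 1 gene was higher and 26 were lower, with 17 not called, where 17.6% of 15014 genes were higher and 17.4% lower. The median log2 fold change of the 44 was 0.15 in E0771, with 0.003 over all genes, and -0.14 in NMuMG, with -0.002 over all genes. All changes were small: the largest rise was 1.49-fold (Prim1 in E0771) and the deepest fall was to 0.671 of the obese level (Tk1 in E0771). The lean and obese libraries did not overlap for 33 of the 44 genes in E0771, where 60.3% of all genes did not overlap, and for 28 in NMuMG, where 45.2% did not.

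**Figure D1:**
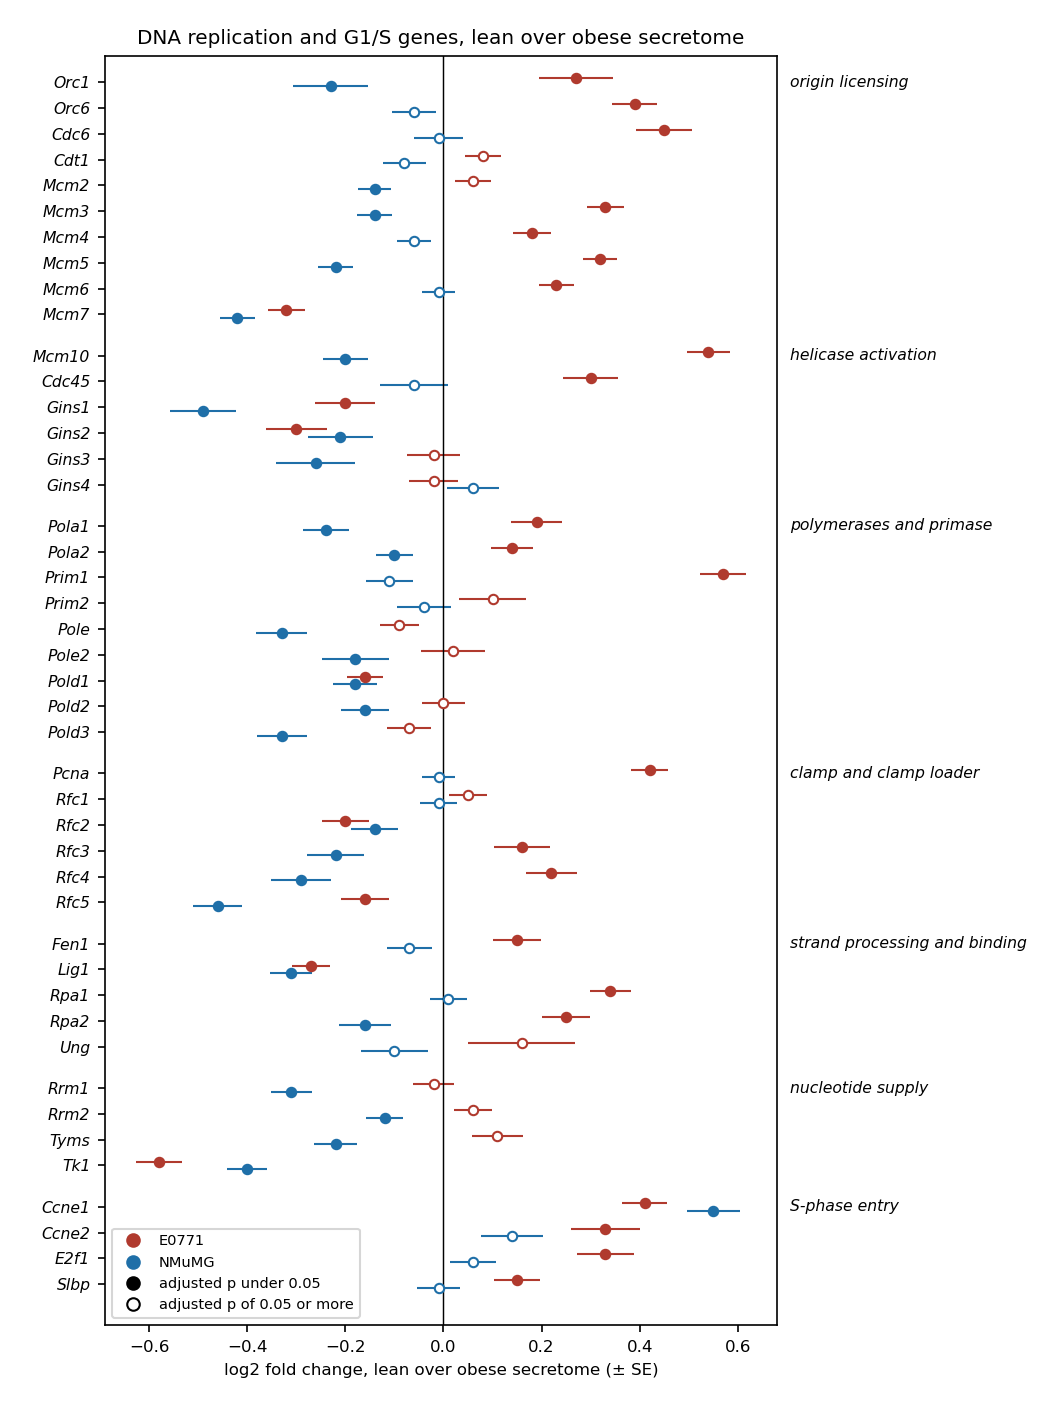
Log2 fold change of the lean over the obese secretome (x axis, log2 units, bars are ± SE) for each of the 44 genes (y axis, grouped by role) in E0771 (red) and NMuMG (blue); filled points have an adjusted p under 0.05. In E0771 22 filled points lie right of 0 and 8 left of it, and in NMuMG 1 lies right and 26 lie left.

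Summed over the 44 genes, E0771 libraries held 6718 to 6782 CPM with the lean secretome, 6173 to 6261 with the obese secretome and 6054 to 6225 in control medium. The 3 lean libraries lay above all 6 others. NMuMG libraries held 4475 to 4877 CPM with the lean secretome, 5096 to 5184 with the obese secretome and 5045 to 5093 in control medium. There the 3 lean libraries lay below all 6 others. Marker genes moved with the same media: the sum of 6 mesenchymal markers in E0771 was 2220 to 2460 CPM with the lean secretome, 3420 to 3760 with the obese one and 3860 to 4020 in control medium, and the sum of the 8 epithelial markers in NMuMG was 7800 to 8080, 6720 to 7020 and 7110 to 7520. Their part in the results on replication genes was not tested.

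Whether the lean-over-obese effect differed between the lines was tested as an interaction over all 18 libraries. The effect was higher in E0771 than in NMuMG for 31 of the 44 genes and lower for 1 (Tk1), where 18.8% of all 16529 genes were higher and 15.5% lower. The median of this difference was 0.26, against 0.033 over all genes. For 9 genes E0771 rose and NMuMG fell: Orc1, Mcm3, Mcm5, Mcm10, Pola1, Pola2, Rfc3, Rfc4 and Rpa2, and the difference was called for all 9. For 12 genes E0771 rose and NMuMG was not called, with the difference called for 11. For 9 genes NMuMG fell and E0771 was not called, with the difference called for 8. Both lines fell for 8 genes (Mcm7, Gins1, Gins2, Pold1, Rfc2, Rfc5, Lig1 and Tk1), of which 3 were called as different, and both rose for 1, Ccne1. Cdt1, Gins4, Prim2, Rfc1 and Ung were called in neither line.

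**Figure D2:**
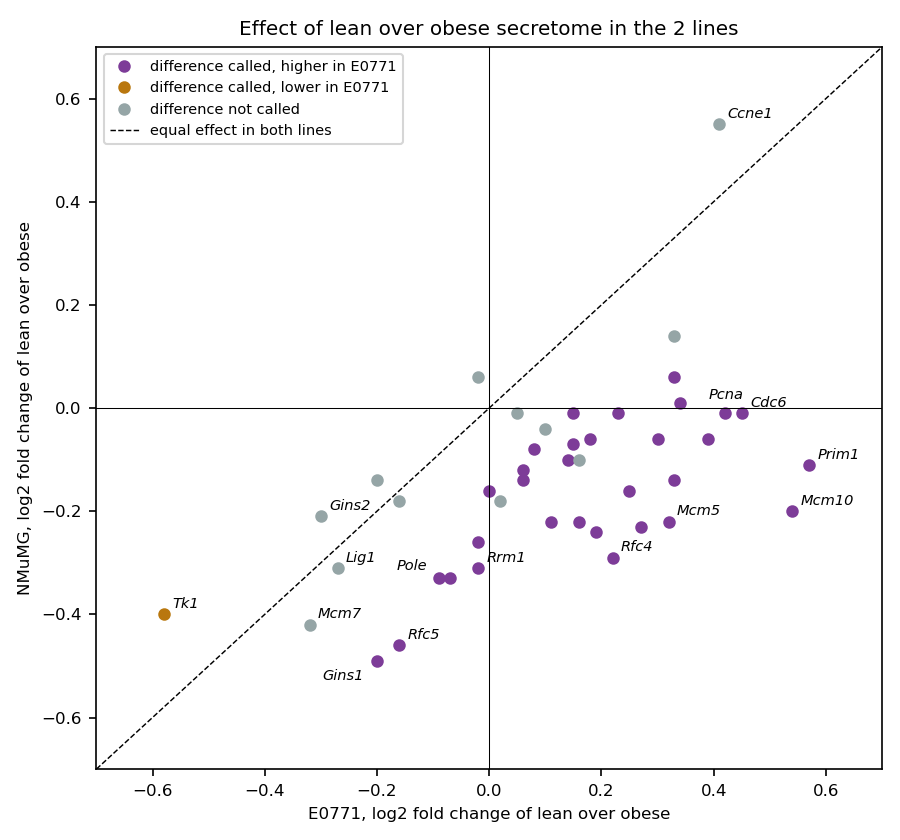
Log2 fold change of the lean over the obese secretome in E0771 (x axis) against NMuMG (y axis) for the 44 genes; purple and orange points have a called difference between the lines, grey points do not, and the dashed line marks an equal effect. The 31 purple points lie below the dashed line, most with a rise in E0771 and a fall or little change in NMuMG.

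Although the directions differed, the order of the genes was partly shared. Across the 44 genes the lean-over-obese effects in the 2 lines gave r = 0.581 (Pearson) and rho = 0.579 (Spearman), against r = 0.193 across the 12433 genes tested in both lines. Genes are no replicates, and these correlations run across them. The sign was the same for 17 of the 44 genes and for 55.1% of all genes. The 5 genes that rose most in E0771, Prim1, Mcm10, Cdc6, Pcna and Ccne1, stood in NMuMG at -0.11, -0.20, -0.01, -0.01 and 0.55, of which Mcm10 was called lower and Ccne1 higher. The genes lowest in E0771, such as Tk1 and Mcm7, were among the lowest in NMuMG.

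Most origin licensing genes rose in E0771. With the lean over the obese secretome 7 of the 10 genes rose there, 1 fell and 2 were not called, with a median of 0.25. Of all genes 25.8% rose and 26.9% fell there. In NMuMG 5 fell and 5 were not called, with a median of -0.11, where 17.4% of all genes fell. Orc1, the large ATPase subunit of the origin recognition complex, read 30.2, 30.7 and 37.8 CPM with the lean secretome, 28.3, 27.2 and 26.3 with the obese secretome and 27.7, 26.4 and 29 in control medium in E0771. The rise of Orc1 over obese was 0.27 (SE 0.075, adjusted p = 0.0045), and without E0771 lean replicate 3, its highest library, the adjusted p was 0.0511. In NMuMG Orc1 fell by 0.23 on the log2 scale (adjusted p = 0.0165), a call lost without lean replicate 3 (0.0562) or obese replicate 1 (0.0567). Orc6, the smallest subunit of that complex, rose by 0.39 (SE 0.0461, adjusted p = 1.29e-07) in E0771 and stood at -0.06 (SE 0.0456, adjusted p = 0.356) in NMuMG.

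Cdc6, the ATPase that brings the helicase ring to the origin, was among the 4 largest rises in E0771. Its level there was 82.9, 76.6 and 94 CPM with the lean secretome, 62.3, 61.7 and 60.4 with the obese secretome and 64, 62.1 and 61.6 in control medium. Lean stood over obese by 0.45 (SE 0.0571, adjusted p = 3.89e-07), and every lean library lay above every other E0771 library. Cdc6 in NMuMG read 58.8, 64.2 and 55.9 CPM with the lean secretome, 58.9, 57.9 and 61.6 with the obese secretome and 54.7, 53.7 and 55.3 in control medium. These groups overlapped for lean and obese, at -0.01 (SE 0.0491, adjusted p = 0.918). Cdt1, the partner of Cdc6 in loading the ring, read 255, 258 and 270 CPM with the lean secretome, 243, 247 and 246 with the obese secretome and 243, 237 and 248 in control medium in E0771. Cdt1 in NMuMG read 88.5, 88.3 and 81 CPM with the lean secretome, 91, 89.5 and 89.1 with the obese secretome and 87.8, 94.8 and 86.5 in control medium. It was called for lean over obese in neither line, at 0.08 (SE 0.0367, adjusted p = 0.0612) in E0771 and -0.08 (SE 0.044, adjusted p = 0.179) in NMuMG. The difference between the lines was called at 0.18 (SE 0.0575, adjusted p = 0.0142), and without NMuMG lean replicate 3 its adjusted p was 0.164.

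The 6 subunits of the helicase ring, Mcm2 to Mcm7, act as 1 complex, and their messages did not move together. Mcm5 in E0771 read 479, 489 and 489 CPM with the lean secretome, 393, 392 and 381 with the obese secretome and 364, 375 and 377 in control medium. Mcm5 in NMuMG read 216, 216 and 203 CPM with the lean secretome, 247, 241 and 243 with the obese secretome and 233, 247 and 242 in control medium. The lean libraries were the highest of E0771 and the lowest of NMuMG, with no overlap: the lean-over-obese effect was 0.32 (SE 0.0346, adjusted p = 4.54e-08) in E0771 and -0.22 (SE 0.0353, adjusted p = 8.78e-06) in NMuMG, and the difference between them was 0.55 (SE 0.0501, adjusted p = 2.16e-11). Mcm3 showed the same directions. Mcm3 in E0771 read 335, 329 and 351 CPM with the lean secretome, 265, 271 and 267 with the obese secretome and 256, 263 and 271 in control medium. Mcm3 in NMuMG read 247, 253 and 232 CPM with the lean secretome, 261, 261 and 275 with the obese secretome and 264, 268 and 260 in control medium. The effect was 0.33 (SE 0.0372, adjusted p = 5.78e-08) in E0771 and -0.14 (SE 0.0358, adjusted p = 0.00297) in NMuMG.

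Mcm4 and Mcm6 rose in E0771 and were not called in NMuMG. Mcm6 in E0771 read 373, 355 and 366 CPM with the lean secretome, 312, 306 and 310 with the obese secretome and 289, 299 and 304 in control medium. Mcm6 in NMuMG read 291, 295 and 282 CPM with the lean secretome, 298, 283 and 288 with the obese secretome and 293, 284 and 289 in control medium. Only the E0771 lean libraries stood above the rest of their line, with lean over obese at 0.23 (SE 0.0362, adjusted p = 7.92e-06) there and -0.01 (SE 0.0337, adjusted p = 0.782) in NMuMG. Mcm4 in E0771 read 205, 202 and 210 CPM with the lean secretome, 177, 181 and 184 with the obese secretome and 178, 186 and 190 in control medium. Mcm4 in NMuMG read 255, 269 and 249 CPM with the lean secretome, 262, 267 and 268 with the obese secretome and 258, 251 and 258 in control medium. Lean over obese was 0.18 (SE 0.0384, adjusted p = 0.00032) for Mcm4 in E0771 and -0.06 (SE 0.0341, adjusted p = 0.199) in NMuMG.

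Mcm2 fell in NMuMG and was not called in E0771 for lean over obese. Mcm2 in E0771 read 305, 300 and 311 CPM with the lean secretome, 292, 295 and 288 with the obese secretome and 274, 283 and 290 in control medium. Mcm2 in NMuMG read 214, 213 and 202 CPM with the lean secretome, 225, 229 and 233 with the obese secretome and 239, 238 and 233 in control medium. Lean over obese stood at 0.06 (SE 0.0361, adjusted p = 0.178) in E0771 and -0.14 (SE 0.0341, adjusted p = 0.00178) in NMuMG. Mcm7 went against the other subunits in E0771. Mcm7 in E0771 read 290, 296 and 272 CPM with the lean secretome, 353, 361 and 352 with the obese secretome and 341, 346 and 354 in control medium. Mcm7 in NMuMG read 251, 269 and 248 CPM with the lean secretome, 328, 342 and 347 with the obese secretome and 344, 350 and 329 in control medium. Its lean libraries were the lowest in both lines, with lean over obese at -0.32 (SE 0.0384, adjusted p = 2.05e-07) in E0771 and -0.42 (SE 0.0359, adjusted p = 2.82e-11) in NMuMG, and the difference between the lines was not called (0.12, SE 0.0539, adjusted p = 0.0923).

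Of the 6 genes of helicase activation 2 rose and 2 fell in E0771 with the lean over the obese secretome, shares near those of all genes (25.8% and 26.9%), and 4 fell in NMuMG, where 17.4% of all genes did. Mcm10, which binds the loaded ring and is needed to open the helicase, showed the largest difference between the lines of all 44 genes. Mcm10 in E0771 read 190, 184 and 208 CPM with the lean secretome, 131, 135 and 132 with the obese secretome and 130, 131 and 134 in control medium. Mcm10 in NMuMG read 60.7, 62.6 and 57.4 CPM with the lean secretome, 69.4, 67 and 69.5 with the obese secretome and 67.3, 71.1 and 67.2 in control medium. The E0771 lean libraries were all higher and the NMuMG lean libraries all lower than the others of their line, giving lean over obese of 0.54 (SE 0.043, adjusted p = 2.52e-10) and -0.20 (SE 0.0456, adjusted p = 0.000636) and a difference of 0.76 (SE 0.0628, adjusted p = 1.75e-12). Cdc45, the helicase cofactor loaded onto the ring, rose by 0.30 (SE 0.0555, adjusted p = 7.8e-05) in E0771 and stood at -0.06 (SE 0.0695, adjusted p = 0.542) in NMuMG.

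The 4 GINS genes encode the 4 subunits of 1 complex, and their messages differed in direction and size. Gins1 in E0771 read 36.4, 33 and 32.3 CPM with the lean secretome, 38.4, 39.9 and 38.4 with the obese secretome and 35.9, 35.7 and 39.2 in control medium. Gins1 in NMuMG read 19.2, 19.8 and 17.1 CPM with the lean secretome, 25.5, 25.9 and 26.4 with the obese secretome and 24.7, 25.1 and 26.6 in control medium. It fell in both lines for lean over obese, by more in NMuMG (-0.49, SE 0.0669, adjusted p = 4.39e-07) than in E0771 (-0.20, SE 0.0614, adjusted p = 0.00691), and the difference of 0.30 had an adjusted p of 0.00898, or 0.0865 without NMuMG lean replicate 3. Gins2 in E0771 read 27.3, 26.6 and 27.5 CPM with the lean secretome, 33.3, 33 and 33.6 with the obese secretome and 31.6, 32.6 and 36.1 in control medium. Gins2 in NMuMG read 38.3, 36.6 and 32.6 CPM with the lean secretome, 44.1, 40 and 39.2 with the obese secretome and 40.1, 43.5 and 37.2 in control medium. The fall of Gins2 was -0.30 (SE 0.0619, adjusted p = 0.000229) in E0771 and -0.21 (SE 0.0658, adjusted p = 0.0145) in NMuMG, where the call was lost without lean replicate 3 (0.0934) or obese replicate 1 (0.0858). Gins3 in E0771 read 52.2, 50.1 and 54.5 CPM with the lean secretome, 52.1, 52.7 and 53.3 with the obese secretome and 48, 42.8 and 44.1 in control medium, so that both secretomes lay above control medium. Gins3 in NMuMG read 12.4, 12.5 and 13.5 CPM with the lean secretome, 16.3, 14.9 and 14.4 with the obese secretome and 14.2, 14.4 and 15.7 in control medium. For lean over obese it stood at -0.02 (SE 0.0538, adjusted p = 0.807) in E0771 and -0.26 (SE 0.0804, adjusted p = 0.0106) in NMuMG, the latter lost without obese replicate 1 (0.0783). Gins4 was not called in either line.

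Among the polymerases and primase 3 of 9 genes rose in E0771 with the lean over the obese secretome and 1 fell. There 25.8% of all genes rose and 26.9% fell, and the median of the 9 was 0.02. In NMuMG 7 fell and none rose, where 17.4% of all genes fell and 17.6% rose. Prim1, the catalytic primase subunit that lays the RNA primer, had the largest rise in E0771. Prim1 in E0771 read 120, 114 and 114 CPM with the lean secretome, 76.6, 76.2 and 79.9 with the obese secretome and 79.4, 71.2 and 73.1 in control medium. Prim1 in NMuMG read 70.3, 72.1 and 63.6 CPM with the lean secretome, 75.1, 73.2 and 72.4 with the obese secretome and 76.1, 70.3 and 77 in control medium. The lean libraries in E0771 stood above the other 6 (0.57, SE 0.0475, adjusted p = 5.53e-10 over obese), and in NMuMG the change of -0.11 (SE 0.0478, adjusted p = 0.0671) was not called, with a difference between the lines of 0.70 (SE 0.0684, adjusted p = 1.04e-10). Prim2, the large primase subunit, was called in neither line for lean over obese.

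Pola1 and Pola2, the catalytic and B subunits of the polymerase alpha that Prim1 and Prim2 work with, rose in E0771 and fell in NMuMG. Pola1 stood at 0.19 (SE 0.0516, adjusted p = 0.0034) in E0771 and -0.24 (SE 0.0467, adjusted p = 0.000131) in NMuMG for lean over obese. Pola2 stood at 0.14 (SE 0.0431, adjusted p = 0.00689) and -0.10 (SE 0.038, adjusted p = 0.0488), with the E0771 call lost without obese replicate 3 (0.0589) and the NMuMG call lost without any of 7 of the libraries (adjusted p up to 0.269). Pole, the catalytic subunit of the leading-strand polymerase epsilon, fell in NMuMG (-0.33, SE 0.0512, adjusted p = 4.23e-05) and was not called in E0771 (-0.09, SE 0.0398, adjusted p = 0.0652). Pold1, the catalytic subunit of polymerase delta, fell in both, at -0.16 (SE 0.0369, adjusted p = 0.000615) in E0771 and -0.18 (SE 0.0444, adjusted p = 0.00181) in NMuMG. Its accessory subunits Pold2 and Pold3 and the epsilon subunit Pole2 fell in NMuMG, at -0.16, -0.33 and -0.18, and were not called in E0771. The Pold2 call was lost without NMuMG lean replicate 3 (0.0752) or obese replicate 3 (0.0747), and the Pole2 call without any of 4 libraries, with an adjusted p up to 0.124. Against control medium the lean secretome left Pole lower in E0771 too, at -0.31 (SE 0.0396, adjusted p = 3.98e-07), as it did Pold1, at -0.31 (SE 0.0369, adjusted p = 1.32e-07), while Pola1 was higher there, at 0.25 (SE 0.0518, adjusted p = 0.000255).

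Pcna, the sliding clamp that holds the polymerases on DNA and a common marker of proliferating cells, rose in E0771. Pcna in E0771 read 262, 264 and 272 CPM with the lean secretome, 198, 199 and 196 with the obese secretome and 182, 188 and 192 in control medium. Pcna in NMuMG read 286, 297 and 285 CPM with the lean secretome, 293, 283 and 290 with the obese secretome and 278, 265 and 277 in control medium. All 3 E0771 lean libraries stood above the other 6, at 0.42 (SE 0.037, adjusted p = 1.36e-09) over obese, whereas the NMuMG groups overlapped, at -0.01 (SE 0.0335, adjusted p = 0.827). Reads of Pcna can be split with its processed copy Pcna-ps2, which held 11.1% as many counts as Pcna in the E0771 libraries and 0.749% as many in the NMuMG libraries. It read 29.7, 22.3 and 20 CPM in E0771 and 2.21, 2 and 2.16 CPM in NMuMG (means for lean, obese and control), so the level of Pcna is less certain in E0771, the line in which it rose.

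The loader of the clamp, replication factor C, has 5 subunits that did not share a direction in E0771. Rfc4 in E0771 read 57.8, 56.9 and 54.3 CPM with the lean secretome, 50.1, 46 and 48.2 with the obese secretome and 49.2, 48.7 and 48.6 in control medium. Rfc4 in NMuMG read 27.9, 26.9 and 24.6 CPM with the lean secretome, 32.9, 32.1 and 31.6 with the obese secretome and 34.5, 31.3 and 32.5 in control medium. It rose by 0.22 (SE 0.0519, adjusted p = 0.000899) in E0771 and stood at -0.29 (SE 0.0607, adjusted p = 0.000215) in NMuMG, with no overlap of lean and obese libraries in either. Rfc3 also rose in E0771 (0.16, SE 0.0577, adjusted p = 0.0231) and fell in NMuMG (-0.22, SE 0.0583, adjusted p = 0.00297), with the E0771 call lost without lean replicate 3 (0.0692) or obese replicate 1 (0.109). Rfc5 in E0771 read 107, 110 and 94.9 CPM with the lean secretome, 117, 117 and 113 with the obese secretome and 118, 118 and 123 in control medium. Rfc5 in NMuMG read 62, 68.1 and 59.9 CPM with the lean secretome, 83.4, 84.1 and 91.7 with the obese secretome and 92.1, 86 and 83.1 in control medium. It fell in both lines, by more in NMuMG (-0.46, SE 0.0502, adjusted p = 1.59e-08) than in E0771 (-0.16, SE 0.0494, adjusted p = 0.00835, or 0.064 as adjusted p without lean replicate 3), and that difference was called at 0.32 (SE 0.0738, adjusted p = 0.000751). Rfc2 fell in both (-0.20 and -0.14, the NMuMG call lost without lean replicate 3 at 0.177 or obese replicate 1 at 0.0835), and Rfc1, the large subunit, was called in neither.

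Of the strand processing and binding genes 3 of 5 rose in E0771 and 1 fell, where 25.8% and 26.9% of all genes did. In NMuMG 2 fell, where 17.4% of all genes did. Rpa1 and Rpa2, subunits of the complex that coats single-stranded DNA, rose in E0771 by 0.34 (SE 0.0416, adjusted p = 2.12e-07) and 0.25 (SE 0.0487, adjusted p = 9.97e-05). In NMuMG Rpa1 stood at 0.01 (SE 0.0383, adjusted p = 0.837) and Rpa2 fell, at -0.16 (SE 0.0524, adjusted p = 0.0191), a call lost without obese replicate 1 (0.125). Fen1 and Lig1, the flap nuclease and the ligase that finish Okazaki fragments in turn, went apart in E0771. Fen1 in E0771 read 111, 111 and 121 CPM with the lean secretome, 103, 104 and 99.8 with the obese secretome and 93.8, 93.4 and 104 in control medium. Fen1 in NMuMG read 142, 153 and 130 CPM with the lean secretome, 149, 142 and 152 with the obese secretome and 138, 144 and 142 in control medium. Fen1 rose in E0771 (0.15, SE 0.0483, adjusted p = 0.00929, or 0.0551 without obese replicate 3) and overlapped between the lean and obese libraries of NMuMG (-0.07, SE 0.0458, adjusted p = 0.25). Lig1 in E0771 read 140, 142 and 137 CPM with the lean secretome, 169, 171 and 165 with the obese secretome and 173, 173 and 173 in control medium. Lig1 in NMuMG read 115, 116 and 103 CPM with the lean secretome, 135, 138 and 137 with the obese secretome and 141, 147 and 135 in control medium. The lean libraries of Lig1 were the lowest in both lines, at -0.27 (SE 0.0381, adjusted p = 1.5e-06) and -0.31 (SE 0.0426, adjusted p = 6.54e-07) over obese. Ung, the uracil glycosylase, was called in neither.

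The 4 genes of nucleotide supply all fell in NMuMG with the lean over the obese secretome, with a median of -0.27, where 17.4% of all genes fell. In E0771 1 fell and 3 were not called, a share of falls near the 26.9% of all genes. Tk1, the thymidine kinase of the salvage route, had the deepest fall in E0771. Tk1 in E0771 read 126, 134 and 114 CPM with the lean secretome, 182, 186 and 185 with the obese secretome and 191, 186 and 195 in control medium. Tk1 in NMuMG read 118, 118 and 107 CPM with the lean secretome, 150, 151 and 146 with the obese secretome and 146, 147 and 136 in control medium. Its lean libraries lay below all others in both lines, at -0.58 (SE 0.0475, adjusted p = 5.9e-10) and -0.40 (SE 0.0407, adjusted p = 1.51e-09) over obese. The deeper fall in E0771 was called at -0.16 (SE 0.0648, adjusted p = 0.0484), but that call was lost without any of 15 of the 18 libraries, with an adjusted p up to 0.236. Tyms, which makes thymidylate anew, in E0771 read 65.3, 67.2 and 63 CPM with the lean secretome, 63.7, 58.2 and 58.2 with the obese secretome and 55.9, 56 and 59 in control medium. Tyms in NMuMG read 77.1, 81.5 and 73.3 CPM with the lean secretome, 88, 87.2 and 93.3 with the obese secretome and 96.4, 90 and 90.5 in control medium. The lean libraries of NMuMG were its lowest, at -0.22 (SE 0.0446, adjusted p = 0.000132) over obese, and in E0771 it stood at 0.11 (SE 0.0518, adjusted p = 0.0724).

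Rrm1 and Rrm2, the large and small subunits of ribonucleotide reductase, also fell in NMuMG alone by call. Rrm1 stood at -0.31 (SE 0.0413, adjusted p = 1.16e-06) in NMuMG and -0.02 (SE 0.0418, adjusted p = 0.766) in E0771. Rrm2 in E0771 read 273, 270 and 250 CPM with the lean secretome, 248, 255 and 254 with the obese secretome and 241, 247 and 242 in control medium. Rrm2 in NMuMG read 334, 360 and 319 CPM with the lean secretome, 375, 356 and 356 with the obese secretome and 346, 334 and 344 in control medium. The NMuMG lean and obese libraries of Rrm2 overlapped, at -0.12 (SE 0.0382, adjusted p = 0.0177), and this call was lost without lean replicate 1 (0.063), lean replicate 3 (0.168) or obese replicate 1 (0.114).

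S-phase entry was the role in which no gene fell in either line. All 4 of its genes rose in E0771 with the lean over the obese secretome, where 25.8% of all genes did. In NMuMG 1 rose, where 17.6% of all genes did. Ccne1, cyclin E1, in E0771 read 98.2, 98 and 99.5 CPM with the lean secretome, 76.5, 72.3 and 73.7 with the obese secretome and 67.4, 72.8 and 70.7 in control medium. Ccne1 in NMuMG read 47, 48.4 and 46.2 CPM with the lean secretome, 31.9, 33.2 and 31.1 with the obese secretome and 29.8, 27.3 and 29.3 in control medium. It was the only gene of the 44 called higher in both lines, at 0.41 (SE 0.0458, adjusted p = 7.23e-08) and 0.55 (SE 0.0534, adjusted p = 5.07e-10), with every lean library above every other of its line, and the difference between the lines was not called (-0.13, SE 0.069, adjusted p = 0.169).

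Ccne2, cyclin E2, in E0771 read 43.5, 38.3 and 36.6 CPM with the lean secretome, 31, 28.7 and 33.6 with the obese secretome and 30.7, 33.3 and 32.4 in control medium. Ccne2 in NMuMG read 30.2, 34.1 and 32.8 CPM with the lean secretome, 27.6, 30.8 and 28.7 with the obese secretome and 25.8, 23.4 and 27.3 in control medium. It rose in E0771 (0.33, SE 0.0701, adjusted p = 0.000284) and stood at 0.14 (SE 0.0634, adjusted p = 0.0809) in NMuMG. E2f1, an activator of the replication genes, in E0771 read 70.8, 73.8 and 82 CPM with the lean secretome, 57.9, 62.1 and 59.6 with the obese secretome and 62.5, 56.1 and 64.2 in control medium. E2f1 in NMuMG read 54.6, 56 and 58.5 CPM with the lean secretome, 55.4, 52.7 and 53 with the obese secretome and 51.6, 53.9 and 49.7 in control medium. The lean libraries of E0771 were higher than the rest, at 0.33 (SE 0.058, adjusted p = 3.71e-05) over obese, and those of NMuMG overlapped with the obese ones, at 0.06 (SE 0.0476, adjusted p = 0.385). Slbp, which binds the stem-loop of histone messages, rose by 0.15 (SE 0.0465, adjusted p = 0.00744) in E0771 and stood at -0.01 (SE 0.0436, adjusted p = 0.863) in NMuMG. In NMuMG, then, cyclin E1 message rose while 26 of the 44 genes fell.

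**Figure D3:**
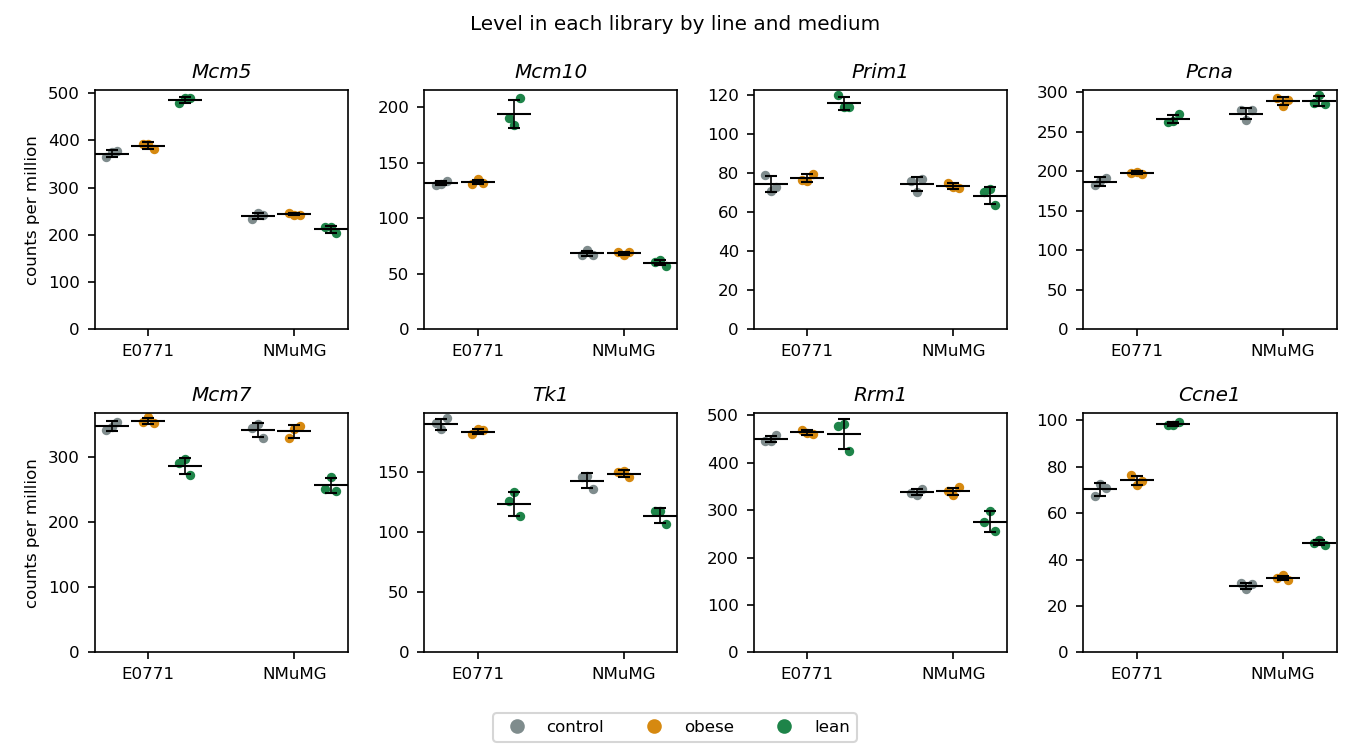
Level (y axis, CPM, from 0) of 8 genes in each of the 18 libraries, by line (x axis) and medium; points are libraries, black bars the mean ± SD of 3. The lean libraries of Mcm5 and Mcm10 are the highest in E0771 and the lowest in NMuMG, those of Mcm7 and Tk1 the lowest in both, and those of Ccne1 the highest in both.

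Against control medium the lean secretome gave a similar division. These comparisons share the lean libraries with the ones above and are not independent of them. In E0771 28 of the 44 genes were higher and 8 lower with the lean secretome than in control medium (27.3% and 29.0% of all genes), with a median of 0.19. In NMuMG 6 were higher and 19 lower (19.1% and 19.1% of all genes), with a median of -0.11. The largest rise in E0771 was that of Prim1, at 0.62 (SE 0.0477, adjusted p = 8.9e-11), and the deepest fall that of Tk1, at -0.63 (SE 0.0476, adjusted p = 9.8e-11). In NMuMG the largest rise was that of Ccne1, at 0.72 (SE 0.0534, adjusted p = 5.08e-13), and the deepest fall that of Rfc5, at -0.46 (SE 0.0499, adjusted p = 1.13e-08). The 6 NMuMG rises were Ccne1, Ccne2, Cdc6, E2f1, Rpa1 and Pcna, with log2 fold changes of 0.72, 0.34, 0.13, 0.13, 0.10 and 0.08. The last 4 of these were close to the threshold: without NMuMG lean replicate 2 the adjusted p was 0.323 for Cdc6, 0.283 for Rpa1 and 0.23 for Pcna, and without control replicate 3 it was 0.155 for E2f1. The difference between the lines was called higher in E0771 for 31 genes and lower for 2, Ccne1 and Tk1 (19.4% and 15.1% of all genes).

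With the obese secretome the 44 genes stayed close to control medium. In E0771 3 genes were called (2.61% of all genes in either direction): Gins3 rose by 0.22 (SE 0.0548, adjusted p = 0.0281), Pole fell, at -0.22 (SE 0.0397, adjusted p = 0.00311), and Pold1 fell, at -0.14 (SE 0.0368, adjusted p = 0.0334). Without control replicate 2, obese replicate 1 or obese replicate 3, 1 gene was called, Pole, and the Pold1 call was lost without any of the 6 control and obese libraries (adjusted p up to 0.206). In NMuMG none was called by edgeR (5.01% of all genes), 8 had an unadjusted p under 0.05, and DESeq2 called 0. The interaction of obese over control called none by edgeR (1.69% of all genes), with 5 at an unadjusted p under 0.05 and 0 called by DESeq2. The percentages in this paragraph are for adjusted p. Shares of all genes at the unadjusted threshold were not taken, so the counts of 8 and 5 cannot be read as an excess. The median change with the obese secretome was 0.03 in each line, with 0 over all genes. Changes were positive for 29 of the 44 genes and negative for 15 in E0771, and for 35 and 9 in NMuMG. The SE of a single gene had a median of 0.0471 in E0771 and 0.0466 in NMuMG, which does not measure the spread of the median over the 44.

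In control medium the 2 lines differed in most of these genes before any secretome was added. Of the 44 genes 28 were higher in E0771 than in NMuMG and 11 lower, where 37.1% of all genes were higher and 43.4% lower, and libraries of the lines did not overlap for 38, where 82.7% of all genes did not. The median difference was 0.21, with -0.077 over all genes. The highest over NMuMG were Gins3 (1.50, SE 0.0641, adjusted p = 7.44e-24), Cdt1 (1.33, SE 0.0409, adjusted p = 6.47e-29), Ccne1 (1.18, SE 0.0505, adjusted p = 8.44e-24) and Pold2 (1.08, SE 0.0467, adjusted p = 1.12e-23). The lowest were Tyms (-0.81, SE 0.0491, adjusted p = 1.26e-18), Pcna (-0.66, SE 0.0358, adjusted p = 3.31e-20), Fen1 (-0.66, SE 0.0498, adjusted p = 1.97e-14) and Rrm2 (-0.60, SE 0.0404, adjusted p = 4.05e-17). Pold2 in E0771 read 157, 153 and 155 CPM with the lean secretome, 154, 152 and 159 with the obese secretome and 144, 145 and 160 in control medium. Pold2 in NMuMG read 62.1, 63.8 and 57.5 CPM with the lean secretome, 67.7, 65 and 71.1 with the obese secretome and 64.8, 68.5 and 63.3 in control medium, below every E0771 library.

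Subunits of 1 complex again differed. Within the helicase ring Mcm5 was higher in E0771 by 0.52 and Mcm4 lower, at -0.58, while Mcm6 was not called. The calls of Mcm7, Prim1, E2f1 and Slbp in this comparison were lost when single control libraries were left out, with an adjusted p up to 0.151, 0.19, 0.188 and 0.179, and that of Ccne2 reached 0.0524.

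**Figure D4:**
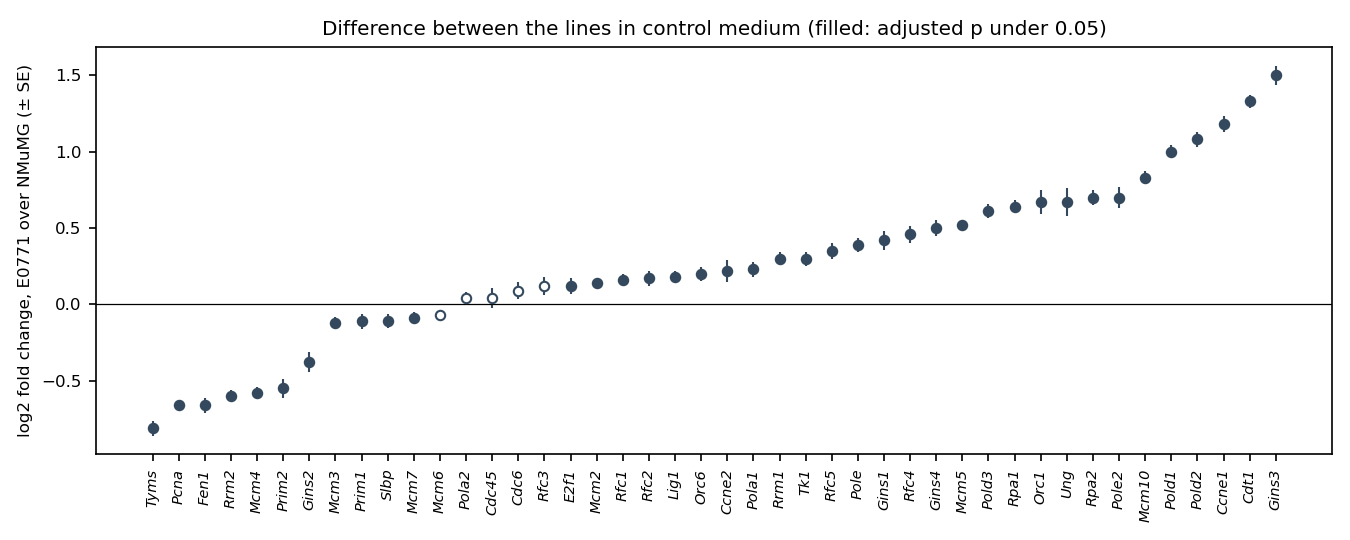
Log2 fold change of E0771 over NMuMG in control medium (y axis, log2 units, bars are ± SE) for the 44 genes in rising order (x axis); filled points have an adjusted p under 0.05. The values run from -0.81 for Tyms to 1.50 for Gins3.

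Other genes of the pathway were read from lists written down beside the 44. Of 44 further replication genes 19 rose and 11 fell in E0771 with the lean over the obese secretome (median 0.05), where 25.8% of all genes rose and 26.9% fell, so the count of falls was near that of all genes. In NMuMG 1 rose and 23 fell (median -0.13), where 17.6% and 17.4% of all genes did. In E0771 Rrm2b and Exo1, a small subunit of ribonucleotide reductase and an exonuclease, rose, at 0.57 and 0.55. Pold4, the smallest subunit of polymerase delta, fell in E0771 (-0.59, SE 0.107, adjusted p = 5.13e-05) and was the 1 gene of the list that rose in NMuMG (0.64, SE 0.0671, adjusted p = 1.98e-09), with a difference of -1.21 (SE 0.121, adjusted p = 1.74e-10). Rnaseh2b and Dscc1 were the next deepest falls in E0771, at -0.53 and -0.33. Dbf4, the activator of the Cdc7 kinase, Recql4 and Ticrr, which both act in origin firing, fell most in NMuMG, at -0.42, -0.40 and -0.35.

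Of 10 replication checkpoint genes 5 rose and 2 fell in E0771, where 25.8% and 26.9% of all genes did, and 6 fell in NMuMG, where 17.4% did. Chek1, the checkpoint kinase that acts below Atr, rose by 0.46 (SE 0.0547, adjusted p = 1.63e-07) in E0771 and stood at -0.36 (SE 0.0652, adjusted p = 3.11e-05) in NMuMG, a difference of 0.84 (SE 0.0876, adjusted p = 4.64e-10). Rad17 and Atrip rose in E0771 (0.28 and 0.24), and Atr fell in NMuMG (-0.35). In E0771 Atr stood at -0.33 (SE 0.119, adjusted p = 0.051) and was not called. Cdc25b, a phosphatase of mitotic entry, fell in both lines, at -0.38 and -0.86, and Wee1, the kinase that opposes it, fell in E0771, at -0.32. Wee1 was also lower in NMuMG, at 34.2, 32.3 and 33.5 CPM with the lean and 40.6, 39 and 40.1 with the obese secretome.

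Of the G1/S regulators other than the 44 genes, 8 of the 29 tested in E0771 rose, a share near the 25.8% of all genes, and 12 fell, where 26.9% of all genes did. In NMuMG 9 of 31 rose and 13 fell, where 17.6% and 17.4% of all genes did. Cdkn1a, the cyclin-dependent kinase inhibitor p21, in E0771 read 67.7, 65.8 and 73.7 CPM with the lean secretome, 38.4, 31.1 and 31.9 with the obese secretome and 27.7, 26.4 and 27.3 in control medium. It rose by 1.03 (SE 0.067, adjusted p = 2.17e-11) there and by 0.32 (SE 0.0353, adjusted p = 5.76e-09) in NMuMG, so an inhibitor of S-phase entry and cyclin E1 rose in the same libraries of both lines. Mybl2, a transcription factor of the cell cycle and a known E2F target, in E0771 read 227, 235 and 238 CPM with the lean secretome, 129, 115 and 120 with the obese secretome and 113, 111 and 115 in control medium, at 0.94 (SE 0.0431, adjusted p = 8.36e-14) over obese, and Cdc25a, the phosphatase that activates cyclin E's kinase, rose by 0.59. The inhibitors Cdkn1c, Cdkn2d and Cdkn2c fell there, at -0.93, -0.62 and -0.57. In NMuMG Ccnd2, cyclin D2, in all 3 lean libraries (340, 340 and 373 CPM) stood above the obese ones (195, 180 and 182 CPM), at 0.91 (SE 0.0392, adjusted p = 4.15e-17), and Myc rose by 0.34. Cdkn2d, Ccna2 (cyclin A2) and Cdkn1b (p27) fell there, at -0.77, -0.64 and -0.57. Ccnd2, Myc, Ccna2 and Cdkn1b were called in the same directions in E0771, at 0.14, 0.24, -0.32 and -0.51.

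Mitosis genes fell in both lines. Of 18 such genes 13 fell and none rose in E0771 (median -0.36), where 26.9% of all genes fell. All 18 fell in NMuMG (median -0.72), where 17.4% of all genes fell. The interaction called the effect higher in E0771 than in NMuMG for 14 of the 18, where 18.8% of all genes were higher. Not all of these 14 need have fallen in E0771. Ccnb2, cyclin B2, read 62.4, 62.2 and 48.5 CPM with the lean and 116, 131 and 131 CPM with the obese secretome in E0771. Ccnb2 in NMuMG read 49.1, 52.5 and 42.9 and 94.8, 108 and 105 CPM. It fell at -1.14 (SE 0.104, adjusted p = 1.81e-05) and -1.11 (SE 0.0599, adjusted p = 6.89e-11), the deepest of the list in both lines. Cdc20, which activates the anaphase-promoting complex, and Cenpa, the centromeric histone, came next in E0771 (-0.58 and -0.57), and Cenpa and the spindle checkpoint kinase Bub1b in NMuMG (-0.99 and -0.82). In E0771, therefore, most licensing genes were higher and most mitosis genes lower in the same lean libraries, and in NMuMG most replication genes and all 18 mitosis genes were lower.

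**Figure D5:**
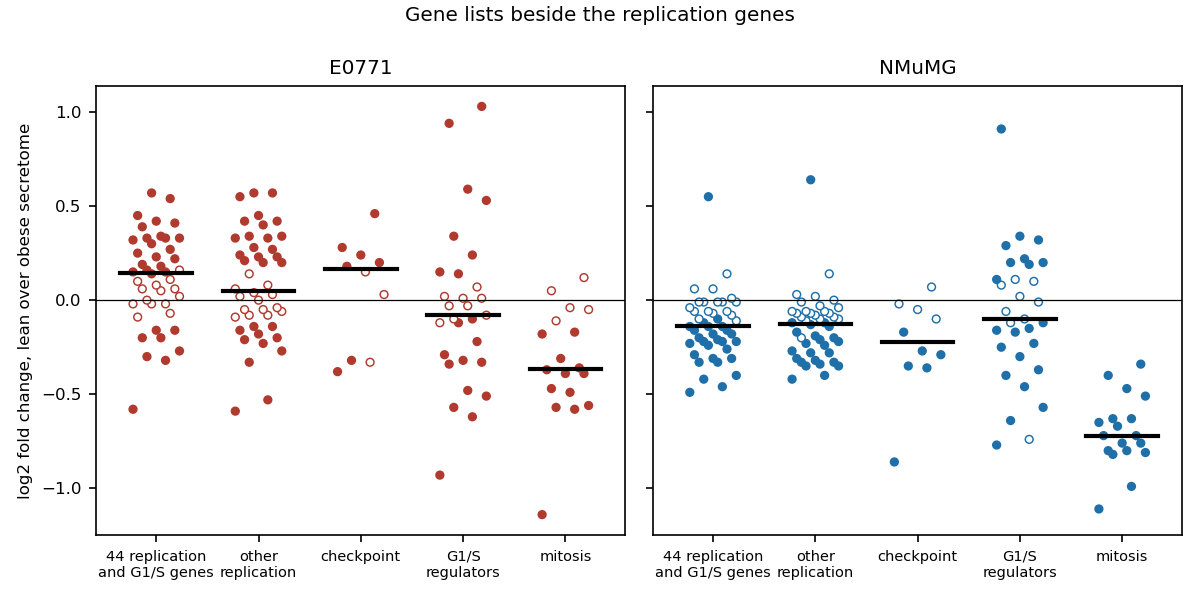
Log2 fold change of the lean over the obese secretome (y axis) for the genes of 5 lists (x axis) in E0771 (left) and NMuMG (right); each point is a gene, filled where the adjusted p is under 0.05, and black lines are medians. The median of the 44 genes is 0.15 in E0771 and -0.14 in NMuMG, and that of the mitosis genes is -0.36 and -0.72.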

How the data were processed

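Gene expression was measured as poly(A) RNA-seq in 18 libraries of E0771 and NMuMG; 12 human libraries were not analysed here. The authors deposited whole-number raw counts per Ensembl gene ID with no normalization. The submitters' processing notes name cutadapt 1.16, STAR 2.7.9a, featureCounts 1.6.3 and the build GRCm39, with no order or settings; the annotation release and strand setting are not given in the sources used here. The library kit keeps strand, per the labels' protocols. Symbols came from GENCODE M21 (GRCm38), matched by ID for 52005 of 56980 IDs, which held 99.68% of counts. Promoter sequences came from RefSeq (GRCm38.p6).

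Counts were tested with edgeR 4.0.16 (R 4.3.3): filterByExpr, TMM scaling, the robust quasi-likelihood fit and the Benjamini-Hochberg adjustment within each comparison, over 13813 genes in E0771, 15014 in NMuMG and 16529 in the joint fit. Each line was fitted alone with its 3 media, and differences between lines over all 18 libraries. The statistics were tested on simulated data. DESeq2 1.42.0, other scalings, no filter, a replicate block and leaving out each library were the alternatives. The 44 genes and the other lists were chosen with earlier results of these data known. All 44 could be named; values in every library are given for the 4 largest called changes in each direction per line, for the interaction and for control medium, and for Mcm2 to Mcm7, Pcna, Cdc6, Cdt1, E2f1, Ccne1 and Ccne2, with Orc1 added after its values were seen. Of the other lists, up to 3 called genes per direction and line are named, and 1 gene that this rule selects is not reported here. Replicates of a group differed by more than counting noise (chi-square per degree of freedom 2.3 or more).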

Additional observations from a re-analysis of the deposited data

Results flagged for a closer look

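For 32 of the 44 genes the log2 fold change of the lean over the obese secretome differed between E0771 and NMuMG by the interaction test (edgeR's quasi-likelihood test, adjusted p under 0.05 over 16529 genes). The difference, E0771 minus NMuMG, was 0.51 for Orc1, 0.47 for Orc6, 0.48 for Cdc6 and 0.18 for Cdt1. In the helicase ring it was 0.21 for Mcm2, 0.49 for Mcm3, 0.25 for Mcm4, 0.55 for Mcm5 and 0.26 for Mcm6. Among genes of helicase activation it was 0.76 for Mcm10, 0.37 for Cdc45, 0.30 for Gins1 and 0.26 for Gins3. Polymerase and primase genes gave 0.44 for Pola1, 0.26 for Pola2, 0.70 for Prim1, 0.26 for Pole, 0.18 for Pold2 and 0.28 for Pold3. The clamp and its loader gave 0.45 for Pcna, 0.40 for Rfc3, 0.53 for Rfc4 and 0.32 for Rfc5. Strand processing gave 0.24 for Fen1, 0.35 for Rpa1 and 0.43 for Rpa2. Nucleotide supply gave 0.31 for Rrm1, 0.19 for Rrm2, 0.35 for Tyms and -0.16 for Tk1, the 1 negative value. S-phase entry gave 0.29 for E2f1 and 0.18 for Slbp. Of these, Pold2 lost its call without any of 6 libraries (adjusted p up to 0.25), Gins3 and Slbp without any of 4 (up to 0.117 and 0.123), and Rrm2 and Fen1 without NMuMG lean replicate 3 (0.0994 and 0.0706). The calls of Tk1, Cdt1 and Gins1 were also lost when single libraries were left out, as given above, that of Tk1 for most of the libraries.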

How the results depend on the processing

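No direction of a called value among the 44 genes reversed under any alternative. In the fit of all 18 libraries the median of lean over obese in E0771 was 0.16 and that of lean over control 0.21. With no filter on low counts 1 gene was called for obese over control in NMuMG and 1 in the interaction. DESeq2 called 24 genes for lean over obese and 21 for lean over control in NMuMG, and 28 in the interaction of lean over control. Leaving out each library in turn gave these ranges. For lean over obese 29 to 30 genes were called in E0771 (median 0.12 to 0.15), 20 to 28 in NMuMG (median -0.16 to -0.11, with 20 without lean replicate 3) and 26 to 34 in the interaction. For lean over control the ranges were 32 to 36 in E0771 (median 0.16 to 0.20), 19 to 26 in NMuMG (median -0.14 to -0.09) and 25 to 33 in the interaction. Obese over control gave 1 to 3 in E0771 (median 0.01 to 0.05), 0 to 1 in NMuMG (median 0.02 to 0.04) and 0 to 1 in the interaction, and control medium 36 to 40. Where 1 library of a group was left out, the fit pooled the spread over the other groups. The cause of these shifts was not tested.

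Replicate numbers are shared by the groups. Deviations of same-numbered libraries from their group means had correlations of -0.0941 to 0.11 in E0771 and -0.0285 to 0.0251 in NMuMG. Differently numbered libraries gave much the same ranges, -0.0906 to 0.109 and -0.024 to 0.0254. In E0771 5 of 9 libraries, and in NMuMG 4 of 9, correlated best with a library of their own number. With the replicate block 30 genes were called for lean over obese in E0771, 26 in NMuMG and 32 in the interaction, 36, 24 and 34 for lean over control, 2, 0 and 0 for obese over control, and 39 in control medium. No scaling moved the median of all genes by 0.1 or more. For lean over obese the median SE of a gene was 0.0469 in E0771 and 0.0471 in NMuMG, where the smallest called changes were 0.14 and 0.10 and the largest changes not called 0.16 and 0.14.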

Other observations

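Of the 31 other G1/S regulators, 2 failed the filter on low counts in E0771, and their values were looked at for that reason. Cdkn2a and Cdkn2b are neighbouring genes that encode the kinase inhibitors p16 and p15, and Cdkn2a also encodes p19ARF. Both had 0 counts in all 9 E0771 libraries, where 3 counts would be 0.0965 to 0.131 CPM. In NMuMG Cdkn2a read 16, 18.5 and 16.4 CPM in control medium, 21.9, 22.4 and 22.4 with the lean secretome and 18.3, 20.6 and 18.1 with the obese secretome. Cdkn2b in NMuMG read 34.9, 34.9 and 32.9 CPM in control medium, 44.2, 43.6 and 47 with the lean secretome and 37.1, 36.9 and 35 with the obese secretome. The lean libraries were the highest for both genes, without overlap. The part of this difference between the lines in the results on replication genes was not tested.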
